A study of Mus musculus with 41 samples.

Results

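Slc26a4 and a group of airway mucus genes were followed by mouse in the lung and the liver after inhalation of nanosized titanium dioxide (nanoTiO2). The group was Slc26a4, Cftr, Muc5ac, Muc5b, Agr2 and Clca3, and its members were the array spots whose gene name equals 1 of these symbols. Of the 6 named genes 5 had spots, with 6 probes and 15 spots of the 43379 spots that were not controls (41174 probes and 27962 gene names). No spot carried the gene name Muc5ac. The genes were chosen by their values in the lung comparison of exposed and control mice, so that their lung differences are given as a description without a test. The liver values were not used for the choice. The comparison of the tissues shares its control lung values with that lung comparison. The reference channel is the denominator of the lung ratios. Tests on both are therefore not independent of the choice.

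All mice were adult female C57BL/6 animals (C57BL/6BomTac in the methods) that had been time-mated in a parallel developmental study and had not become pregnant. The labels state their age only as the equivalent of an early gestation day. Exposed mice inhaled 40 mg nanoTiO2/m3 for 1 hr per day on 11 consecutive days, control mice were exposed to air, and tissues were taken 5 days after the last exposure. RNA of lung pieces was measured in 7 exposed and 6 control mice, and RNA of liver pieces in 7 exposed and 8 control mice, with 1 mouse per array. On each array the RNA of the mouse carried the dye Cy5, and a purchased RNA from mouse cell lines, the same on every array, carried Cy3. A level below is the log2 ratio of Cy5 to Cy3 of a probe, and a difference is the level of exposed mice minus that of control mice, also on the log2 scale.

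On every slide the exposed mice occupied positions 1 and 2 and the control mice positions 3 and 4. Exposure and slide position cannot be told apart. Slide 4 of the lung held only exposed mice. The share of spots well above background was 61.3 to 67.5% on the lung arrays and 55.1 to 70.5% on the liver arrays. Markers of club, ciliated and alveolar type 2 cells were all well above background on each lung array, and the 4 hepatocyte markers with a probe on each liver array. Whole tissue was measured, and fewer cells of a type and less RNA per cell cannot be told apart.

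The airway surface is covered by a liquid and a mucus layer whose thickness and pH depend on anion transport. Slc26a4 encodes pendrin, an exchanger of chloride for bicarbonate, iodide and thiocyanate, known from the inner ear, the thyroid and the kidney and induced in airway epithelium by cytokines. Cftr encodes the chloride and bicarbonate channel that is defective in cystic fibrosis. Muc5ac and Muc5b are the gel-forming mucins of the airways, Agr2 is a disulfide isomerase of the endoplasmic reticulum needed to fold mucins, and Clca3 (gob-5, now named Clca1 in mouse) is a secreted protein of goblet cells.

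The array measured these genes with probes of 60 bases. The first 30 bases of each probe are shown because every level below comes from hybridization to them, in lower case and from 5′ to 3′. All 6 probes matched a RefSeq gene by their accession.
Slc26a4: aggaaggactaatcacagagattcctgact
Cftr, main probe: cactagctattttaaaacaggggagtgagg
Cftr, second probe: gccaacaaaactaggattttggttacatct
Muc5b: tttggcctcattctctgtgagagcctgtgg
Agr2: gtcaggagaccagaaggcagaagcactgtg
Clca3: tttctaaaaatgtactttagacttcctgta
The file headers name the genome build mm7 for these probes. The Slc26a4 probe lies on chromosome 12 from 29359649 to 29359708 and the Agr2 probe on the same chromosome from 33843528 to 33843587. The main Cftr probe lies on chromosome 6 from 18262943 to 18263002, with the second probe from 18208199 to 18208258. The Muc5b probe lies on chromosome 7 from 138300110 to 138300169, and the Clca3 probe on chromosome 3 from 144897653 to 144897712. An annotation of exons for that build was not used here.

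Of the 6 genes Slc26a4, Cftr and Agr2 had a promoter in the RefSeq table of build GRCm38.p6 (250 bases before and 50 bases from the start site). The Slc26a4 promoter, chr12:31559935-31560234 on the minus strand, is shown because Slc26a4 had the highest lung difference of the group, with the match described next in capitals.
Slc26a4 promoter: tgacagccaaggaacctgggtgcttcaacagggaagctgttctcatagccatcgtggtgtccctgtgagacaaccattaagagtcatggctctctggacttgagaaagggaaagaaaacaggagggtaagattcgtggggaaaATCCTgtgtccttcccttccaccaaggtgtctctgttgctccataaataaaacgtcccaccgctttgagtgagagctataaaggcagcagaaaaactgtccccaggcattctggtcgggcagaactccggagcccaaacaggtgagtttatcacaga
Motifs were searched on both strands. None of the 3 promoters held the STAT6 motif, either NF-kB motif, TTCNNNGAA (STAT), TGTTTAC (FOXA), TTGCGCAA (C/EBP) or ATGTTTA (FOXI1-type), motifs that occurred in 0.0883 to 8.3% of the 32851 promoters of the table. The short SPDEF-type motif ATCCT, found in 41% of them, occurred 1 time in the Slc26a4 promoter and 1 time in that of Agr2. It overlapped no other motif match.

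Slc26a4 was higher in exposed than in control lung in every mouse measured. In exposed lung its levels were 4.48, 4.63, 4.01, 4.48, 3.72 and 4.53 in mice 1, 7, 12, 13, 19 and 20. In control lung they were 2.98, 2.53, 2.74, 2.00, 2.39 and 2.34 in mice 24, 26, 27, 29, 32 and 34. The lowest exposed mouse lay above the highest control mouse. For exposed mouse 23 the scanner software had marked the spot, which therefore has no value. With marked spots left out only of the background model its level was 4.11. The means were 4.31 ± 0.36 (SD, n = 6) and 2.50 ± 0.34 (SD, n = 6), a difference of 1.81 ± 0.17 (SE), or 3.51-fold. All 13 lung spots were well above background, and none was saturated.

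The lung difference of Slc26a4 was as large within slides, at 1.80 on slide 1, 1.64 on slide 2 and 1.73 on slide 3. With single arrays left out it ran from 1.71 to 1.93. It was 1.81 without any background correction and 1.77 in the table of ratios normalized by the authors. The size depended on which outlier spots entered the background model, and the rule used here, which also leaves out spots with an outlying local background, was set after a first fit had been seen. With only signal outliers left out, as in that fit, the difference was 1.17, with marked spots kept 1.24, with the model fitted on all spots 1.33 and with the scanner software's processed signals 1.43. With marked spots kept, the groups overlapped, since exposed mouse 12 fell to 1.79, below all controls (1.94 to 2.74), and mouse 1, at 2.80, lay just above them. On the all-spots model the estimated Cy5 background of exposed mice 1, 12 and 23 was -120, -200 and -609 intensity units, against -5.16 to -4.12 on all 13 arrays without marked spots.

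The reference RNA is the same on every array, so its Cy3 signal was compared as well. The normalized Cy3 signal was computed from the normalized ratio and the mean of both channels. It is therefore not a separate reading of the reference, and it could rise with Cy5. For Muc5b it was 7.06 in exposed mouse 13 (Cy5 11.44) and 6.11 in control mouse 27 (Cy5 7.00). The normalized log2 Cy3 signal of Slc26a4 was 7.00 ± 0.21 (SD, n = 6) on exposed and 6.57 ± 0.13 (SD, n = 6) on control arrays, a difference of 0.43 ± 0.09 (SE, adjusted p = 0.74 from limma over all probes). The ranges met at 6.78. The log2 Cy5 signal differed by 2.25, so that the normalized Cy3 signal moved in the direction that lowers the ratio. Whether the reference itself moved was not tested. Over all probes 0.00486% were called in this channel. For Cftr, Muc5b, Agr2 and Clca3 the Cy3 differences lay between -0.05 and 0.12. The Cy3 signal was not well above background on any lung array for Cftr or Agr2. For Clca3 it was on 2 of 7 exposed and 0 of 6 control arrays, and for Muc5b on 7 of 7 and 4 of 6. For Cftr, Agr2 and Clca3 the Cy3 difference therefore cannot show how far the ratio rests on the sample. For Slc26a4 and Muc5b it is only a description.

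Slc26a4 is a gene of the thyroid as well. The thyroid markers Tshr and Slc5a5 were not well above background on any lung array, and Pax8 was on 1 exposed array. Of the markers of ionocytes and kidney intercalated cells, which carry pendrin in other organs, the transcription factors Foxi1 and Ascl3 were not well above background on any lung array. The proton pump subunits Atp6v0d2 and Atp6v1c2 were on all 13, and Atp6v1b1 was on 3 of 7 exposed and 1 of 6 control arrays. The summed signal of the 5 markers on that list was 11.75 to 12.32 in exposed and 11.84 to 12.40 in control lung.

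Marker lists of other cells had differences in both directions. All 7 ciliated cell markers had positive differences, with a median of 0.22, where 50.9% of all probes were above 0. Of the 7, 1 passed the test, where 0.202% of all probes were called. This was Foxj1, the master regulator of motile cilia, with a difference of 0.29 (adjusted p = 0.037 from limma), named after its values were seen. Its levels were 3.06 to 3.35 in the 6 exposed mice with a value and 2.88 to 2.99 in control lung. Of all probes 0.364% lay entirely above in this way. Whether Foxj1 passes under the other treatments of outlier spots was not tested. The summed ciliated signal was 13.75 to 14.36 in exposed and 13.12 to 13.98 in control lung. All 4 hepatocyte markers had positive differences in lung, with a median of 0.69. Alb1 and Cyp2e1 were well above background on every lung array. Apoa1 was on 5 of 7 exposed and 2 of 6 control arrays, and Ttr, with a difference of 0.03, on 1 of 7 and 0 of 6. The summed log2 signal of the 4 was 8.97 to 13.15 in exposed and 8.43 to 10.03 in control lung. All 5 heart muscle markers were higher as well, with a median of 0.29 and summed signals of 14.42 to 16.23 and 12.07 to 15.83. Control mice 27 and 29 had the lowest sums of the ciliated, heart muscle and hepatocyte lists. The other control mice lay at 13.79 to 13.98 for the ciliated list and at 14.27 to 15.83 for the heart muscle list. For the hepatocyte list they lay at 9.25 to 10.03. Of 7 neutrophil markers 6 were lower, with a median of -0.23. Of 5 club cell markers 4 were lower, with a median of -0.05, and of 5 alveolar type 2 markers 4 were lower, with a median of -0.1. None of the hepatocyte, heart muscle, neutrophil, club cell or alveolar type 2 markers passed the test. The part of any of the lists in the Slc26a4 difference was not tested.

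Cftr moved the same way and far less. Its main probe had 10 spots on each array, with a median SD between the spots of an array of 0.13. Levels in exposed lung were 2.34, 2.16, 2.03, 2.07, 1.81, 2.21 and 2.03 in mice 1, 7, 12, 13, 19, 20 and 23. Levels in control lung were 1.73, 1.78, 1.87, 1.82, 1.62 and 1.63 in mice 24, 26, 27, 29, 32 and 34. Of the exposed mice 6 of 7 lay above all controls, and mouse 19 lay within the control range. The means were 2.09 ± 0.17 (SD, n = 7) and 1.74 ± 0.10 (SD, n = 6), a difference of 0.35 ± 0.07 (SE), or 1.28-fold. On slides 1, 2 and 3 the difference was 0.50, 0.18 and 0.32. It turned negative where outlier spots entered the background model, to -0.22 with the model on all spots, -0.20 with marked spots kept and -0.34 with only signal outliers left out. The second Cftr probe was not well above background on any of the 28 arrays.

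Muc5b was high in most mice of both groups. Levels in exposed lung were 2.48 in mouse 1, 3.51 in mouse 7, 3.20 in mouse 12, 4.38 in mouse 13, 3.91 in mouse 19, 3.55 in mouse 20 and 3.34 in mouse 23. In control lung they were 3.99 in mouse 24, 3.17 in mouse 26, 0.90 in mouse 27, 0.97 in mouse 29, 3.80 in mouse 32 and 3.69 in mouse 34. The control mice 27 and 29 stood apart from the others, and the remaining 4 control mice lay inside the exposed range. The means were 3.48 ± 0.59 (SD, n = 7) and 2.75 ± 1.44 (SD, n = 6), a difference of 0.73 ± 0.51 (SE). Within slides it was -0.59 on slide 1, 2.27 on slide 2, which held mice 27 and 29, and 0.40 on slide 3. It was 0.36 without mouse 27 and 0.37 without mouse 29.

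Agr2 had a wide spread in both groups. Levels in exposed lung were 0.68 in mouse 1, 1.72 in mouse 7, 1.40 in mouse 12, 3.73 in mouse 13, 3.05 in mouse 19, 1.70 in mouse 20 and 1.26 in mouse 23. In control lung they were 3.38 in mouse 24, 1.18 in mouse 26, 0.35 in mouse 27, 0.51 in mouse 29, 1.76 in mouse 32 and 2.09 in mouse 34. The groups overlapped over almost their whole range, and only exposed mouse 13 lay above all controls. The means were 1.93 ± 1.07 (SD, n = 7) and 1.54 ± 1.13 (SD, n = 6), a difference of 0.39 ± 0.53 (SE). It ran from 0.09 without exposed mouse 13 to 0.76 without control mouse 24, and was 0.21, 0.15 and 0.18 without exposed mouse 19 and control mice 27 and 29.

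Clca3 varied most of the 5 genes. Levels in exposed lung were 1.23 in mouse 1, 1.70 in mouse 7, 0.96 in mouse 12, 7.20 in mouse 13, 2.22 in mouse 19, 4.35 in mouse 20 and 1.00 in mouse 23. In control lung they were 3.36 in mouse 24, 0.74 in mouse 26, 0.45 in mouse 32 and 4.82 in mouse 34, and mice 27 and 29 were not well above background (0.19 and 0.11). High and low mice occurred in both groups, and the Cy5 spot intensity ran from 73 in control mice 27 and 29 to 23077 in exposed mouse 13. The means were 2.67 ± 2.32 (SD, n = 7) and 1.61 ± 1.99 (SD, n = 6), a difference of 1.05 ± 1.05 (SE). It was 0.30 without exposed mouse 13 and 1.70 without control mouse 34. On slides 1, 2 and 3 it was -0.59, 0.81 and 2.08.

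**Figure D1:**
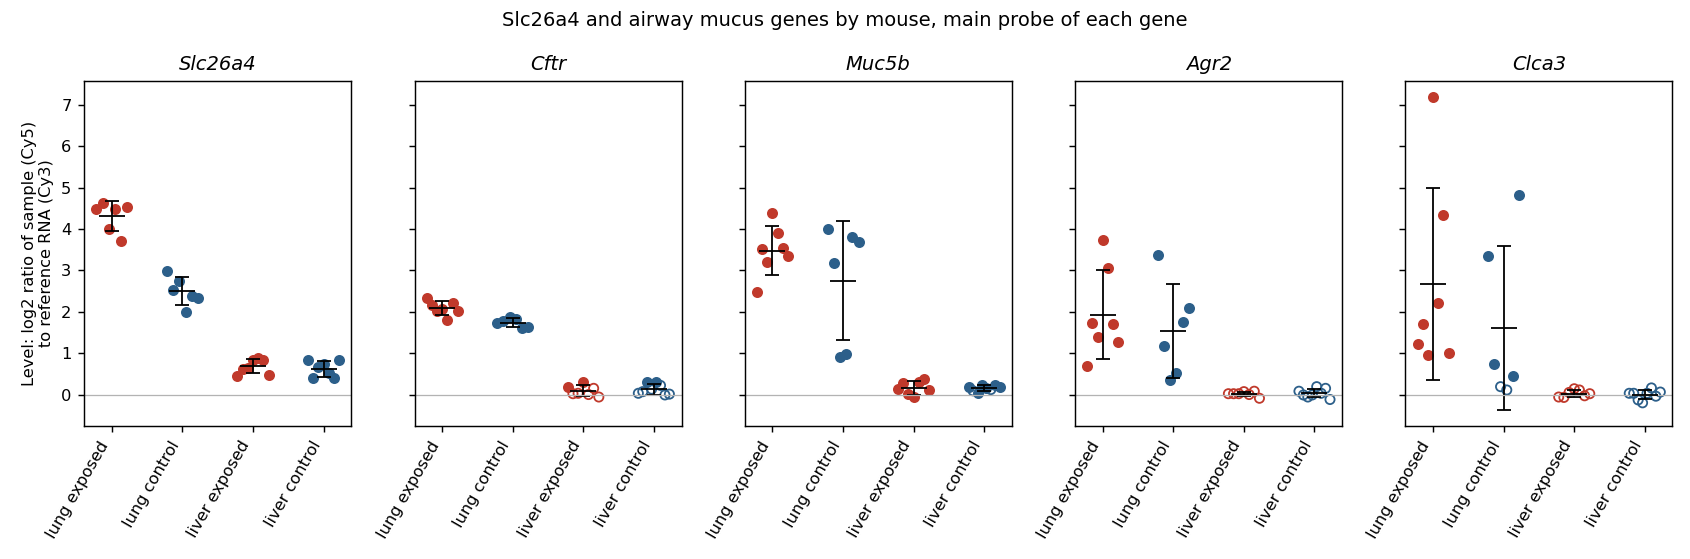
The level of the main probe of each gene (log2 ratio of sample to reference RNA) is plotted for each mouse in exposed and control lung and liver; filled points were well above background in Cy5, open points were not, and bars give the mean ± SD. Slc26a4 in exposed lung (3.72 to 4.63) lay above control lung (2.00 to 2.98), whereas Muc5b, Agr2 and Clca3 overlapped and all 5 genes were low in liver.

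Of the 5 genes with spots, all 5 had a higher mean in exposed lung, with a median difference of 0.73. With only signal outliers left out, Slc26a4 and Clca3 were positive (1.17 and 0.66) and Cftr, Muc5b and Agr2 were not (-0.34, -0.05 and -0.02). With marked spots kept, Muc5b was at 0.05 and Agr2 at 0.19. Over all 41155 probes the median was 0.001 and 50.9% were above 0. Slc26a4 alone did not overlap between the groups, where 0.364% of all probes lay entirely above and 0.18% were called higher. In the other direction 0.233% lay entirely below and 0.0219% were called lower. Nothing is read from these counts because the genes were chosen with this comparison in view.

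The levels of Muc5b, Agr2 and Clca3 went together from mouse to mouse. These 3 pairs were chosen after their values had been seen, so that their correlations are given as a description without a test. Over the 13 lung arrays, which share the reference RNA and the slides, Muc5b and Agr2 had r = 0.82 and Spearman's rho = 0.98. Agr2 and Clca3 had r = 0.76 and rho = 0.77, and Muc5b and Clca3 had r = 0.63 and rho = 0.74. Slide went with these levels: control mice 27 and 29, the lowest for all 3 genes, were both on slide 2, and the mean level of exposed mice was highest on slide 3 for each.

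The relation of Muc5b and Agr2 was present in both groups, with r = 0.94 in the 7 exposed and 0.86 in the 6 control mice. It was 0.91 without control mice 27 and 29, the farthest from the median of Muc5b. For Agr2 and Clca3 the values were 0.76 and 0.74 within the groups and 0.57 without exposed mouse 13 and control mouse 24. For Muc5b and Clca3 they were 0.75 and 0.63 within the groups and 0.64 without mice 27 and 29. Slc26a4 did not go with the mucus genes among the 6 exposed mice measured, with r of -0.15 for Muc5b, -0.27 for Agr2 and 0.31 for Clca3, and r was 0.84 for Cftr. Among the 6 control mice r was 0.33, 0.52, 0.25 and 0.09 for Muc5b, Agr2, Clca3 and Cftr. These 8 values are descriptions as well.

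The control mice with the lowest Muc5b were also low in markers of some other cells. Mice 27 and 29 had the lowest summed signals of the ciliated cell list (13.20 and 13.12, against 13.75 to 14.36 in the other 11 mice) and of the heart muscle list (12.07 and 13.33, against 14.27 to 16.23). For the club cell list they ranked 12 and 11 of 13, at 18.89 and 18.95. For the hepatocyte list they were lowest as well, at 8.43 and 8.96, against 8.97 to 13.15 in the other 11 mice. For the neutrophil list they ranked 10 and 1, at 13.95 and 15.41. For the alveolar type 2 list they ranked 3 and 2, at 19.61 and 19.65. For the list of upper airway, gland and squamous markers they ranked 4 and 3, at 18.24 and 18.31. Signals were added before the log2 was taken, so the brightest genes of a list weigh most. On that last list Lyzs had the highest level (5.56 in exposed and 5.57 in control lung), and Krt4 was not well above background on any lung array. That sum therefore cannot show whether upper airway or gland tissue was low in mice 27 and 29. The part of the piece of lung taken in the levels of the mucus genes was not tested.

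**Figure D2:**
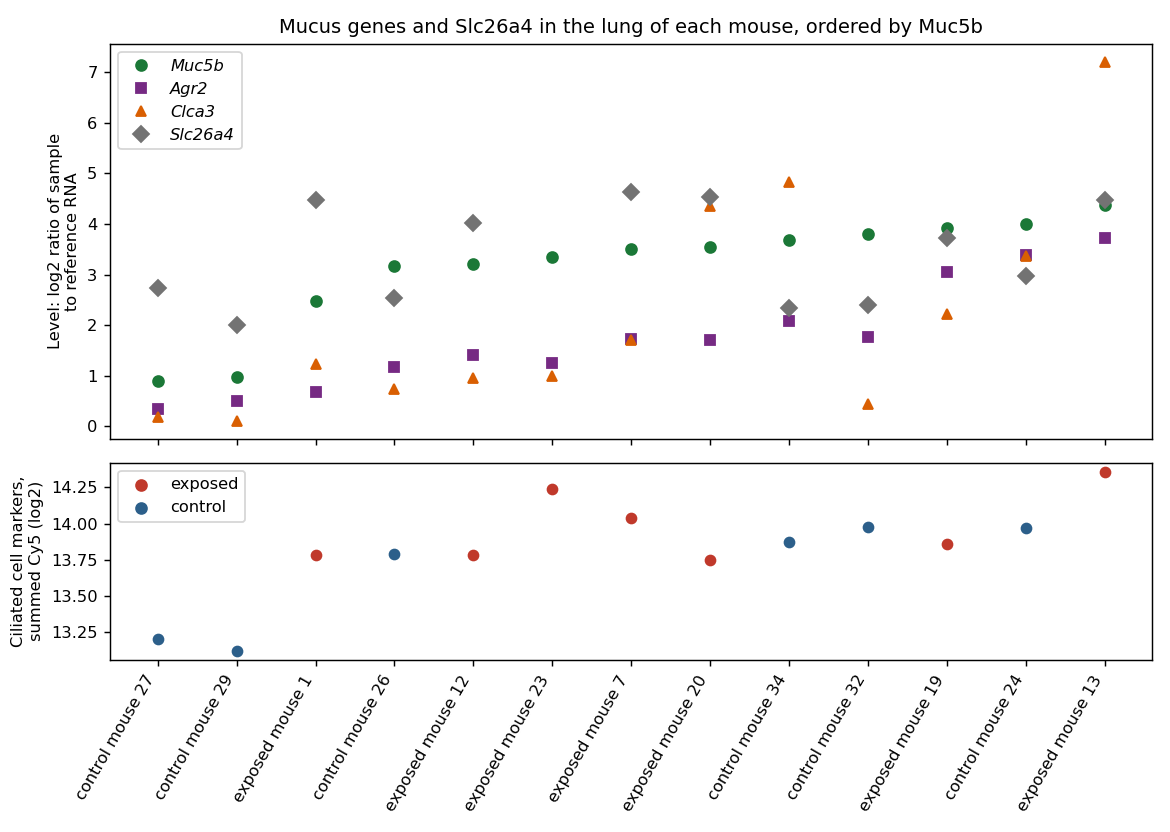
The upper panel plots the levels of Muc5b, Agr2, Clca3 and Slc26a4 (log2 ratio of sample to reference RNA) in the lung of each of 13 mice in the order of Muc5b, and the lower panel the summed log2 Cy5 signal of 7 ciliated cell markers, colored by group. Agr2 follows the order of Muc5b and Slc26a4 does not, and control mice 27 and 29 are lowest in Muc5b and in the ciliated cell markers.

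Muc5ac itself had no spot by name. A pair of other probes are described as mucin-5AC, and neither is a member. The probe named ENSMUST00000055392 was well above background on every array. Its lung levels were 0.15 to 1.13 (median 0.58) in exposed and 0.08 to 0.66 (median 0.32) in control mice, which overlapped. The probe named LOC546020 was well above background on 3 of 13 lung arrays and on all liver arrays. Both had higher ratios in control liver than in control lung, by 0.64 and 0.42 (adjusted p = 3.5e-06 and 0.00032 from limma). LOC546020 was above background on only 1 of 6 control lung arrays. Its liver levels went with the slide, at 0.18 to 0.30 on slides 1 and 3 and 0.53 to 0.66 on slides 2 and 4. The test did not take the slide into account.

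In the liver Slc26a4 was low but well above background on all 15 arrays. Its levels were 0.46, 0.65 and 0.88 (lowest, median and highest) in 7 exposed and 0.39, 0.67 and 0.83 in 7 control mice, and the spot of control mouse 34 was marked and left out. The groups overlapped, with a difference of 0.06 ± 0.09 (SE, 95% interval -0.14 to 0.25, adjusted p = 1 from limma). Muc5b was dim in liver, with Cy5 intensities of 96.5 to 171 over local backgrounds of 76 to 89.5. It was well above background in 7 of 7 exposed and 6 of 8 control mice. Its levels were -0.05 to 0.38 in exposed and 0.03 to 0.24 in control mice, and differed by 0.01 ± 0.06 (SE, adjusted p = 1). Cftr was well above background in 2 of 7 exposed and 2 of 8 control mice. Agr2 and Clca3 were not well above background on any liver array.

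None of the 5 genes was called between exposed and control liver, and 0% of the 41143 probes were called by limma. An unadjusted p under 0.05 was found for 1040 probes and for none of the 5 genes. Of the 5, 3 were above 0, as were 47.2% of all probes, and their differences lay between -0.04 and 0.06 with a median of 0.01. The median over all liver probes was -0.004. The 5 genes did not separate the groups on any probe, as 0.051% of all probes did upward and 0.122% downward. Whether the lung and liver differences of Slc26a4 differ was not tested, because the lung difference was used in the choice.

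Between the tissues all 5 genes were higher in control lung. Slc26a4 was higher in lung by 1.87 ± 0.13 (SE, 3.67-fold, adjusted p = 3.1e-09 from limma) and Cftr by 1.61 ± 0.06 (SE, adjusted p = 4.9e-13), where only 2 of 8 control liver arrays measured Cftr above background. Muc5b was higher by 2.60 ± 0.44 (SE, 6.04-fold, adjusted p = 6.1e-05), where 6 of 8 control liver arrays measured it above background. For Agr2 and Clca3, not well above background on any liver array, the levels passed the test (adjusted p = 0.0011 and 0.03), and the sizes are bounds on the Cy5 signal rather than on the ratio. After normalization of the channels between arrays the Cy5 signal of Agr2 was at least 2.89-fold and that of Clca3 at least 3.21-fold higher in lung. Clca3 was above background on 4 of 6 lung arrays. Each bound sets the mean lung signal against the higher of the probe's own signal and the dimmest signal well above background on each liver array, and is open to dye bias. On the ratio the fitted folds were 2.85 and 3.07, which are not bounds.

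All 5 passed the test, where 57.8% of all probes were called in either direction and 29.3% higher in lung. Over all probes 46.5% had a difference above 0. For 4 of 5 no lung array overlapped a liver array, as for 21.8% of all probes, and Clca3 was the exception. The Clca3 call rested on 2 mice: without control mouse 24 the adjusted p was 0.084 and without control mouse 34 it was 0.052, within a range of 0.00057 to 0.086 over 25 alternatives. Lung and liver arrays differed in slides, scans and scanner software, and these cannot be told apart from the tissue.

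The levels of Slc26a4 were ordered exposed lung, control lung, and liver, where exposed and control liver did not differ beyond their spread. Within single mice the lung level was above the liver level by 2.84 to 4.02 in the 5 exposed and by 1.26 to 2.15 in the 5 control mice with both values. For Cftr the order was the same, with the groups overlapping in lung and in liver. For Muc5b, Agr2 and Clca3 both lung groups lay above the liver groups in the mean, and the groups within each tissue overlapped.

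The genes most like Slc26a4 over the 12 lung arrays where it was measured were sought among 18131 probes well above background on every lung array. They were Noxo1 (r = 0.970), Ly6f (r = 0.965), D17H6S56E-5 (r = 0.957), Ccl7 (r = 0.955) and Vnn1 (r = 0.955). Noxo1 encodes an organizer subunit of NADPH oxidase 1, Ly6f a surface protein of the Ly6 family, Ccl7 a chemokine for monocytes, and Vnn1 a pantetheinase. The arrays share the reference RNA, the slides and the split into 2 groups, and r was lower within the groups, at 0.50 to 0.84 in exposed and 0.04 to 0.71 in control mice.

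The 5 genes separated the lung groups as Slc26a4 did. Noxo1 had levels of 1.72 to 2.31 in exposed and 0.33 to 0.67 in control lung, and Ly6f had 2.23 to 3.05 and 0.20 to 0.39. For Vnn1 the ranges were 2.98 to 3.64 and 1.75 to 2.01, for Ccl7 -2.06 to -1.55 and -3.11 to -2.62, and for D17H6S56E-5 -1.43 to -0.97 and -2.10 to -1.68. This follows from the way they were sought. In liver, which was not used for the search, their differences were -0.13 to 0.31 and none passed the test (adjusted p = 1 for each from limma).

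**Figure D3:**
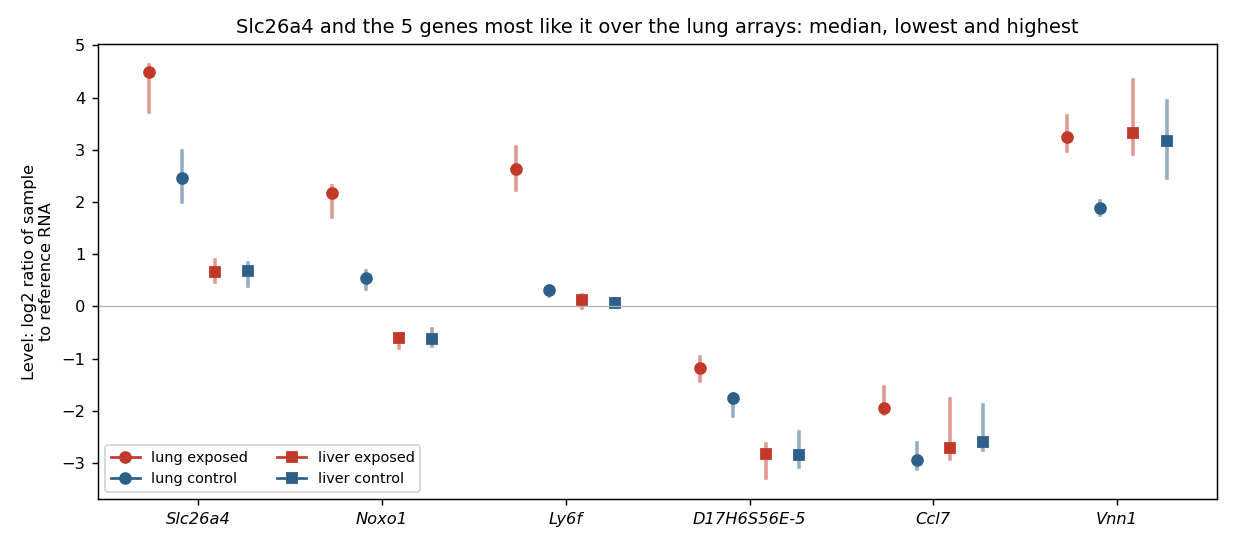
For Slc26a4 and the 5 genes most like it over the lung arrays, the level (log2 ratio of sample to reference RNA) is given by group as the median (circles for lung, squares for liver) with lines from the lowest to the highest mouse. Exposed lung lay above control lung without overlap for each gene, and exposed and control liver overlapped.

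The other genes of these pathways did not pass the test. Of 115 genes with a probe on 8 lists 0 were called in lung (background 0.202% of all probes called by limma), with a median difference of 0.01 and 65 higher and 50 lower. Only 76 of the 115 were well above background on most lung arrays, and 73 on most liver arrays. In lung these were 5 of 9 Slc26 transporters, 2 of 4 thiocyanate genes, 4 of 10 other mucins and 9 of 17 interleukin 17 and 22 genes. A gene near background has a ratio near 0, so a change in it could be missed and the list medians rest partly on such genes. At an unadjusted p under 0.05 there were 14 of 115 (12.2%, against 7.13% of all probes). In liver 0 of 115 were called (background 0%), with a median difference of -0.01, and 3 had an unadjusted p under 0.05 (2.61%, against 2.53% of all probes).

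Among the relatives of Slc26a4, 9 other Slc26 transporters had differences of -0.14 to 0.09 in lung. The largest was that of Slc26a9, a chloride channel of airway epithelium, whose levels were 2.85 to 3.30 in 7 exposed and 3.03 to 3.62 in 5 control mice. Its difference of -0.14 did not pass the test (adjusted p = 0.83). Of 21 genes of airway ion and water transport, 13 were higher and 8 lower. Aqp3, a water and glycerol channel, had the largest difference at 0.43 ± 0.56 (SE, adjusted p = 0.90), with levels of 0.11 to 3.07 in exposed and -0.12 to 3.14 in control lung.

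Pendrin moves thiocyanate, which lactoperoxidase oxidizes with hydrogen peroxide from the dual oxidases. The 4 genes of that list had differences of -0.21 to -0.02, the largest that of Duox2 (adjusted p = 0.79). Of 10 other mucins 7 were higher and 3 lower, and the membrane mucin Muc4 differed most, by 0.35 ± 0.12 (SE, adjusted p = 0.52). Its levels were 2.26 to 2.80 in exposed and 1.66 to 2.55 in control lung, which overlapped.

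Of 26 genes of the goblet cell programme and of mucus packaging, 15 were higher and 11 lower, with a median of 0.02. The largest difference was that of the trefoil peptide Tff2, at 0.71 ± 0.41 (SE, adjusted p = 0.75), with levels of 1.92 to 3.44 in exposed and 0.20 to 2.62 in control lung. Spdef, the goblet cell transcription factor, differed by 0.14 (adjusted p = 0.87). Type 2 cytokines and cytokines of the interleukin 17 family can act on pendrin and on goblet cells. Among them Il9, Il25, Il17a, Il17b, Il17c and Il17f were not well above background on any lung array. Il13 was on 2 of 7 exposed and 1 of 6 control arrays, and Il5 on 0 of 7 and 1 of 6. Il4 and Il17d were on most lung arrays. Of 19 genes of type 2 cytokine signalling, 11 were higher, and Retnla, a secreted product of alternatively activated macrophages and epithelium, differed most, by 0.51 ± 0.18 (SE, adjusted p = 0.57).

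Of 17 genes of interleukin 17 and 22 signalling, 12 were higher, and Nfkbiz, a nuclear regulator of NF-kB targets, differed most, by 0.39 ± 0.09 (SE, adjusted p = 0.10). Its levels were -0.75 to -0.34 in exposed and -1.17 to -0.72 in control lung. Of 9 EGF receptor ligands and receptors 3 were higher, and Egfr differed most, by -0.13 ± 0.09 (SE, adjusted p = 0.80). In liver the largest differences of the 8 lists were those of Slc26a1, Kcne3, Lpo, Muc6, Tff3, Tslp, Il17b and Egfr, between -0.26 and 0.26 (adjusted p = 1 for each).

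**Figure D4:**
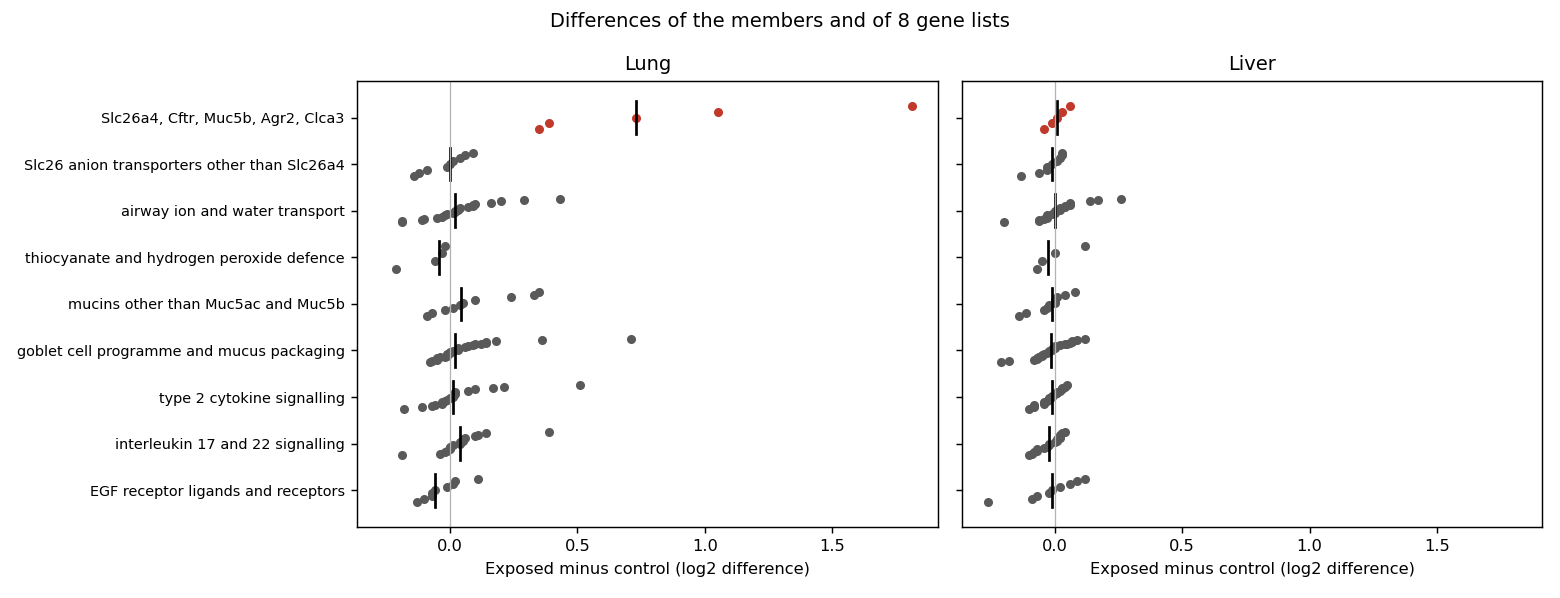
Each point is the difference between exposed and control mice (log2) of 1 gene, in lung on the left and liver on the right, for the 5 measured genes of the group and 8 lists of related genes; vertical bars give the median. In lung the group had a median of 0.73 and the lists between -0.06 and 0.05, and in liver all medians lay between -0.03 and 0.01. Genes that were not well above background are included.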

How the data were processed

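Lung and liver mRNA was measured on 2-color arrays. The deposited scanner files hold spot signals and local backgrounds as intensity values, not normalized by the authors (software 9.5.3.1 for lung and 10.1.1.1 for liver). The authors also deposited a table of LOWESS-normalized log2 ratios, which rose with Cy5 over Cy3 (r of 0.993 to 0.997 per array; array medians of -0.043 to -0.023) and served as an alternative. Gene names came from the lung files and were carried to the liver by probe.

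Spots marked as outliers in signal or background, in either channel, were left out (2.46 to 4.72% per array). This rule was chosen after seeing the data. A first fit left out signal outliers only. The rule was widened because bright spots with marked local backgrounds were taken to pull the background model on some arrays. The part of these spots alone was not tested. The first rule is kept as an alternative, and the choice changes the lung differences of all 5 genes. Median intensities were corrected with normexp (offset 50), normalized by loess within each array, and averaged by probe. Groups were compared with lmFit and eBayes in limma 3.58.1 (R 4.3.3, statmod 1.5.0, data.table version 1.17.8, jsonlite 2.0.0), in place of the MAANOVA of the methods, with Benjamini-Hochberg adjustment over all probes and a threshold of 0.05. For Cy3 and signal sums channels were also normalized between arrays (Aquantile). Figures used matplotlib 3.10.9. The fit was tested on simulated data.

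A gene's main probe had the highest mean Cy5 in lung. Named are all members, the gene with the largest difference of each pathway list where none was called, and the 5 genes most correlated with Slc26a4. Foxj1 and Spdef, and the pairs of mucus genes, were chosen after their values were seen. The members and lists were chosen with earlier results of these data known. Sums of markers kept marked spots, so that each array summed the same genes. Control lung and liver share 6 mice by number in the labels. Same-mouse deviations from the group means correlated at -0.06 to 0.19 over 14787 probes, and mouse as a block was an alternative. Others were other background corrections and normalizations, treatments of marked spots, a filter on dim probes, slide as a block, and each array left out. The number of arrays limits the precision. Other libraries of the series were not used here. The summed signal of the thyroid marker list is not reported here.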

Additional observations from a re-analysis of the deposited data

How the results depend on the processing

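The difference of Slc26a4 between exposed and control lung was positive under every alternative tried. It was 1.33 with the background model fitted on all spots, 1.43 with the scanner software's processed signals, 1.24 with marked spots kept, and 1.17 with only signal outliers left out. It was 1.74 to 1.81 under 7 others and 1.71 to 1.93 with each array left out. Cftr turned negative in lung, to -0.22 with the model on all spots, -0.20 with marked spots kept and -0.34 with only signal outliers left out. The rule used here was itself chosen after seeing the data, in place of the one that left out only signal outliers; leaving marked spots out of the background model only was added then too. With only signal outliers left out Muc5b was at -0.05, Agr2 at -0.02 and Clca3 at 0.66, and Muc5b was at 0.05 with the model on all spots and with marked spots kept. The Cy3 difference of Slc26a4 was 0.72 with the model on all spots and 0.45 to 0.46 otherwise. The number of all probes called in lung ran from 4 with median centering and 14 with the model on all spots to 133 with slide as a random block, against 83. It was 15 with marked spots kept and 22 with only signal outliers left out.

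No gene of the group was called in liver, and none of the pathway lists in either tissue, under any alternative tried. Between lung and liver 4 to 5 genes of the group stayed past the threshold. The exception was Clca3, at 1.39 (adjusted p = 0.068) with the model on all spots, 1.39 (0.067) with marked spots kept and 1.62 (0.086) with slide as a random block, and 0.98 to 1.27 without control mice 34 and 24, within a range of adjusted p from 0.00057 to 0.086. With mouse as a replicate block over the 6 paired mice 5 genes were called, with differences of 1.90 for Slc26a4, 1.56 for Cftr and 2.62 for Muc5b, and the block changed no call. Probes near background, as Agr2 and Clca3 in liver, have only a bound there.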
